A study of Mus musculus with 7 samples.

Results

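Myostatin and the TGF-beta branch that shares its receptors and SMAD proteins were followed through 10 genes chosen by symbol: the ligands Mstn, Tgfb1 and Tgfb2, the receptors Acvr2a, Acvr2b, Tgfbr1 and Tgfbr2, and the signal transducers Smad2, Smad3 and Smad4. Of these, 9 were analysed among 12239 genes, and Acvr2b was not analysed here. The libraries came from tibialis anterior (TA), a fast muscle at the front of the shin, of male FVBN mice whose age the labels give as 5 to 6 months. Wild-type (WT) mice gave 4 libraries. Mybpc2 knockout mice (C2-/-) gave 3, and in their allele a Neo cassette with LoxP sites replaced exons 2 to 22 of Mybpc2, the gene for fMyBP-C, a thick-filament protein of fast fibres. Each library was labelled as a sample of its own, and the design text gives 4 animals per group where 3 C2-/- libraries were given. The question put to these genes was whether loss of fMyBP-C was accompanied by altered RNA of a pathway that limits muscle mass.

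Myostatin is a secreted ligand made by muscle fibres that holds back muscle growth, and animals without it have enlarged muscles. It binds the activin type II receptors (Acvr2a, Acvr2b), which recruit and phosphorylate a type I receptor (Acvr1b or Tgfbr1), whereas the TGF-beta ligands bind Tgfbr2 and use Tgfbr1. Both routes phosphorylate SMAD2 and SMAD3, which join SMAD4 and enter the nucleus, and in muscle the TGF-beta ligands are also known for driving matrix production by fibroblasts.

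Values are log2 CPM, read counts scaled to a library of 1000000 reads, after TMM scaling, a factor per library that offsets differences in library composition. Reads recovered from these values added up to 14929214 to 15464499 for the first 3 WT replicates, 4683853 for the remaining one (replicate 4), and 2613277 to 4917936 for C2-/- libraries, so that 3 reads corresponded to 0.195 to 1.12 CPM. A gene was counted as changed where limma's adjusted p was under 0.05 and the fold change exceeded 1.5 (0.585 on the log2 scale). By this rule 45.2% of all genes changed, 20.2% higher and 25.0% lower in C2-/- muscle, so a call was common for any gene. The change also followed the base composition of the transcript: the median log2 change was 1.12 in the tenth of genes with the lowest GC content and −1.73 in the tenth with the highest. Changes are therefore given also after a GC correction, in which a smooth curve of log2 value against GC content was levelled between libraries, and after which 20.6% of genes changed. WT replicate 4 stood apart from the other WT libraries in depth and in several of the genes below. It was the only WT library within the depth range of the C2-/- libraries. In values given without it, genotype and depth therefore cannot be told apart. Mybpc2 averaged 12.61 ± 0.19 (SD, n = 4) log2 CPM in WT and read 1.16, 1.67 and −0.47 in the 3 C2-/- libraries, in the direction of their labels. Fast fibre genes, the defining markers of TA, were abundant in every library, with 10 of them summing to 199000 to 233000 CPM in WT and 104000 to 126000 CPM in C2-/- muscle.

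Of the 9 genes, 5 changed. Acvr2a, Tgfb2, Tgfbr2 and Smad2 were higher and Smad3 was lower in C2-/- muscle, a share of 55.6% beside the 45.2% of all genes. In 6 genes, those 5 and Tgfb1, no C2-/- library fell within the WT range, beside 49.3% of all genes. The median log2 change over the 9 genes was 0.75, beside −0.14 over all genes. After the GC correction Tgfb2 and Tgfbr2 still passed the rule, and the median of the 9 genes was 0.27 beside 0.02 over all genes.

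**Figure D1:**
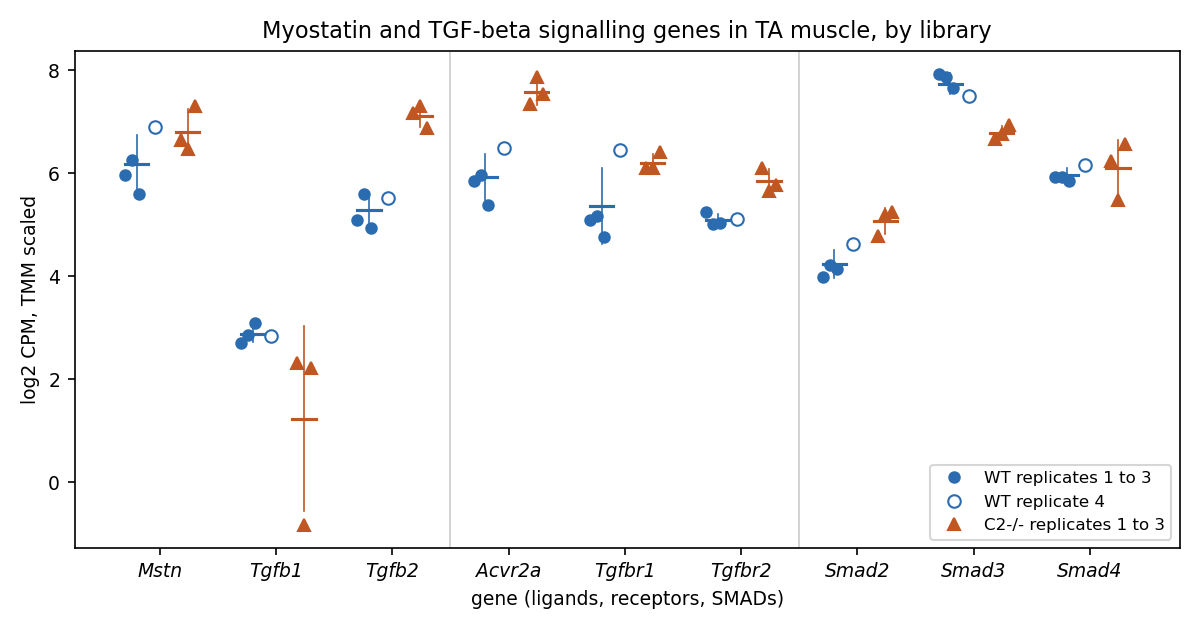
Log2 CPM (vertical axis) of the 9 genes in each library, with WT replicates 1 to 3 as filled circles, WT replicate 4 as an open circle and C2-/- libraries as triangles; horizontal lines are group means and vertical lines the SD (n = 4 WT, n = 3 C2-/-). Tgfb2, Acvr2a, Tgfbr2 and Smad2 were higher and Smad3 lower in all 3 C2-/- libraries than in any WT library, whereas for Mstn and Tgfbr1 the open circle lay among or above the triangles.

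The stretch just before the gene start is printed for the 4 genes on which the account turns, a ligand that did not pass the rule (Mstn), the ligand and the type II receptor with the largest increases among the 9 genes (Tgfb2, Acvr2a), and the SMAD that was lower (Smad3). Each is the 250 bases before the start, from RefSeq on GRCm38.p6, read 5′ to 3′ on the gene's own strand, and entries for 7 of the 9 analysed genes were used. Capitals mark E-boxes (CANNTG), a general motif of which MyoD-family factors read some forms, and the SMAD element CAGAC, in either orientation. The windows lie at chr1:53061390-53061639 (plus strand, Mstn), chr1:186705990-186706239 (minus, Tgfb2), chr2:48813859-48814108 (plus, Acvr2a) and chr9:63757995-63758244 (minus, Smad3).
Mstn: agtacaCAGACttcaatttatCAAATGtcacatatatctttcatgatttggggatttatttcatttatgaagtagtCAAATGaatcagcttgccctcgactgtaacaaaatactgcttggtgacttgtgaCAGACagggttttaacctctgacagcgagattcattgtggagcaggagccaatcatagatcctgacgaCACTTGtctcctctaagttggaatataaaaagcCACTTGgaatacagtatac
Tgfb2: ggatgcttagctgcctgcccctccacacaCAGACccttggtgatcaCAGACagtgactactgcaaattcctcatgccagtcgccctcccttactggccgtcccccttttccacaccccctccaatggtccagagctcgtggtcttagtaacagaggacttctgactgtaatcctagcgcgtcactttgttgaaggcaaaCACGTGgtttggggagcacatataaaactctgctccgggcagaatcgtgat
Acvr2a: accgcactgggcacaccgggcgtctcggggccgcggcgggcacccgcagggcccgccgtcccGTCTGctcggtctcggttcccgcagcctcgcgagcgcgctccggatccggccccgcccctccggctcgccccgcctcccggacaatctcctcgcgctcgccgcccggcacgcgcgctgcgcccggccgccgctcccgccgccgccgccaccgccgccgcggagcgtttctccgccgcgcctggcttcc
Smad3: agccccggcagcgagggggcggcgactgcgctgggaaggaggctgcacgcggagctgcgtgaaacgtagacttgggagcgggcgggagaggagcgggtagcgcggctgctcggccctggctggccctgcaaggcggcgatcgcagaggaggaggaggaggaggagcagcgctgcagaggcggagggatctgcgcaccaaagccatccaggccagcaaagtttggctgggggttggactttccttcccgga

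The Mstn window held 4 E-boxes, 2 CAGAC elements and a TATAAA, and at 38.4% GC it was as AT-rich as the gene's transcript. The Tgfb2 window had 1 E-box, 2 CAGAC elements and a TATAAA. The Acvr2a window was CpG-rich, 82.0% GC with 49 CpG, and held 1 CAGAC element, although its transcript was AT-rich. Smad3 had neither motif in a window of 69.2% GC. Over all 32851 RefSeq windows of this length, 66.2% held an E-box, 42.2% a CAGAC and 12.4% a TATAAA, so these matches are a description of the sequence only.

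Among the ligands, Mstn (chr1:53061640-53068079) was detected at 5.97, 6.25, 5.59 and 6.90 log2 CPM across the 4 WT replicates in order and at 6.65, 6.46 and 7.31 across the 3 C2-/- replicates. All C2-/- libraries exceeded WT replicates 1 to 3, and WT replicate 4 lay among them. The group means differed by 0.62 on the log2 scale (SE 0.31, limma adjusted p = 0.119) with a 95% interval of −0.06 to 1.31, and without WT replicate 4 the difference was 0.87 (limma adjusted p = 0.0198), whereas without C2-/- replicate 3 it was 0.37 (limma adjusted p = 0.378). With quality weights it also passed (0.87, limma adjusted p = 0.0342), as it did with a replicate block (0.87, limma adjusted p = 0.0166). After the GC correction it was −0.66 (limma adjusted p = 0.0866). The Mstn transcript is 38.1% GC, so that its curve share of the change, 1.29, was larger than the change itself. No direction for Mstn therefore held across these settings.

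Tgfb2 (chr1:186622792-186705989), a TGF-beta ligand, had the largest change of the 9 genes. It read 5.09, 5.59, 4.93 and 5.52 log2 CPM in WT and 7.18, 7.30 and 6.88 in C2-/- libraries, with no overlap. The increase was 1.84 on the log2 scale (SE 0.21, limma adjusted p = 0.000347), or 3.57-fold. It was 1.55 after the GC correction (limma adjusted p = 0.00204) and passed the rule in all 18 alternatives, from 1.55 to 2.00. Its exons overlap those of the antisense gene Gm29491, and use of strand in the counting is not given in the sources used here.

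Tgfb1 (chr7:25687002-25705077), the ligand best known for fibrosis, was scarce, at 2.71, 2.86, 3.09 and 2.84 log2 CPM in WT and 2.32, −0.83 and 2.22 in C2-/- libraries. The C2-/- values rest on 14, 1 and 22 reads. All lay below the WT values, but the change of −1.64 (SE 0.71) did not pass the rule (limma adjusted p = 0.0812). It passed without C2-/- replicate 1 (−2.18, limma adjusted p = 0.0467), was −0.61 without C2-/- replicate 2, and was 0.27 after the GC correction (limma adjusted p = 0.784), its transcript being 62.5% GC. Within each library the log2 ratio of Tgfb1 to Tgfb2 was −2.38, −2.73, −1.85 and −2.68 in WT and −4.86, −8.13 and −4.66 in C2-/- muscle. The means differed by −3.48 (exact permutation test, two-sided, p = 0.02857, the smallest that 35 splits allow, adjusted p = 0.04286 over 3 ratios), and by −1.28 after the GC correction (exact permutation p = 0.08571). Since Tgfb1 and Tgfb2 each separated the groups, in opposite directions, the first p was fixed by them and is no further evidence.

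Of the receptors, Acvr2a (chr2:48814109-48903269), a type II receptor for myostatin and activins, read 5.85, 5.96, 5.39 and 6.48 log2 CPM in WT and 7.34, 7.86 and 7.55 in C2-/- libraries. Every C2-/- value was above every WT value. The increase was 1.66 on the log2 scale (SE 0.25, limma adjusted p = 0.00096), or 3.17-fold, and 0.57 after the GC correction, no longer past the rule (limma adjusted p = 0.0569) but still without overlap. With the GC correction and WT replicate 4 left out together, the increase was 0.67 and passed (limma adjusted p = 0.0204). The exons of Acvr2a overlap those of Orc4, a replication gene on the opposite strand, which rose by 2.11 (SE 0.34, limma adjusted p = 0.00123). As use of strand in the counting is not given, it is not known whether reads from their shared stretch could be assigned to one of the pair. After the GC correction the Orc4 change was 0.69 (limma adjusted p = 0.0808).

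Tgfbr2 (chr9:116084293-116175360), which binds the TGF-beta ligands, read 5.24, 5.01, 5.04 and 5.11 log2 CPM in WT and 6.10, 5.65 and 5.77 in C2-/- libraries. The groups were separate and WT replicate 4 sat with the other WT libraries. The increase of 0.75 (SE 0.19, limma adjusted p = 0.00971), or 1.68-fold, was 0.86 after the GC correction (limma adjusted p = 0.00797) and passed in all 18 alternatives, from 0.62 to 0.91.

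Its partner Tgfbr1 (chr4:47353222-47414931), the type I receptor, read 5.10, 5.18, 4.76 and 6.44 log2 CPM in WT and 6.09, 6.09 and 6.41 in C2-/- libraries. WT replicate 4 lay above all C2-/- libraries and the other WT libraries lay below them. The change of 0.83 (SE 0.35) did not pass (limma adjusted p = 0.074), whereas without WT replicate 4 it was 1.19 (limma adjusted p = 0.00085), it passed also with median centring, voom, quality weights or a replicate block (0.96 to 1.19), and after the GC correction it was −0.15 (limma adjusted p = 0.735). The log2 ratio of Tgfbr1 to Tgfbr2 was 0.27 ± 0.73 (SD, n = 4) in WT and 0.36 ± 0.33 (SD, n = 3) in C2-/- muscle, a difference of 0.08 that was not detectable (exact permutation p = 0.8571). With GC levelled the difference turned to −1.01 (exact permutation p = 0.02857, not adjusted over the 3 ratios).

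Of the SMADs, Smad3 had the highest log2 CPM in WT and was the one lower in C2-/- muscle. It read 7.94, 7.87, 7.66 and 7.50 log2 CPM in WT and 6.67, 6.75 and 6.94 in C2-/- libraries, without overlap. It fell by 0.96 on the log2 scale (SE 0.16, limma adjusted p = 0.00165), and the change was −0.24 after the GC correction (limma adjusted p = 0.329). Smad2, its close relative, read 3.99, 4.22, 4.14 and 4.63 in WT and 4.77, 5.19 and 5.24 in C2-/- libraries, also without overlap. It rose by 0.82 (SE 0.24, limma adjusted p = 0.019), or 1.77-fold. The Smad2 call was lost without any 1 of WT replicates 1 to 3 or C2-/- replicate 3 (log2 change 0.74 to 0.81), and the change was 0.28 after the GC correction (limma adjusted p = 0.374).

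The log2 ratio of Smad2 to Smad3 rose in every C2-/- library above every WT library, from −3.50 ± 0.45 (SD, n = 4) to −1.72 ± 0.17 (SD, n = 3). The ratio thus moved by 1.78 (exact permutation p = 0.02857, adjusted p = 0.04286), and with GC levelled it moved by 0.53 (exact permutation p = 0.05714). Since Smad2 and Smad3 each separated the groups, in opposite directions, the first p was fixed by them and is no further evidence. Smad4, the shared partner of both, averaged 5.97 ± 0.13 in WT and 6.10 ± 0.55 in C2-/- libraries, a difference of 0.13 (SE 0.25, limma adjusted p = 0.688) with a 95% interval of −0.42 to 0.67, and of 0.21 after the GC correction (limma adjusted p = 0.548).

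**Figure D2:**
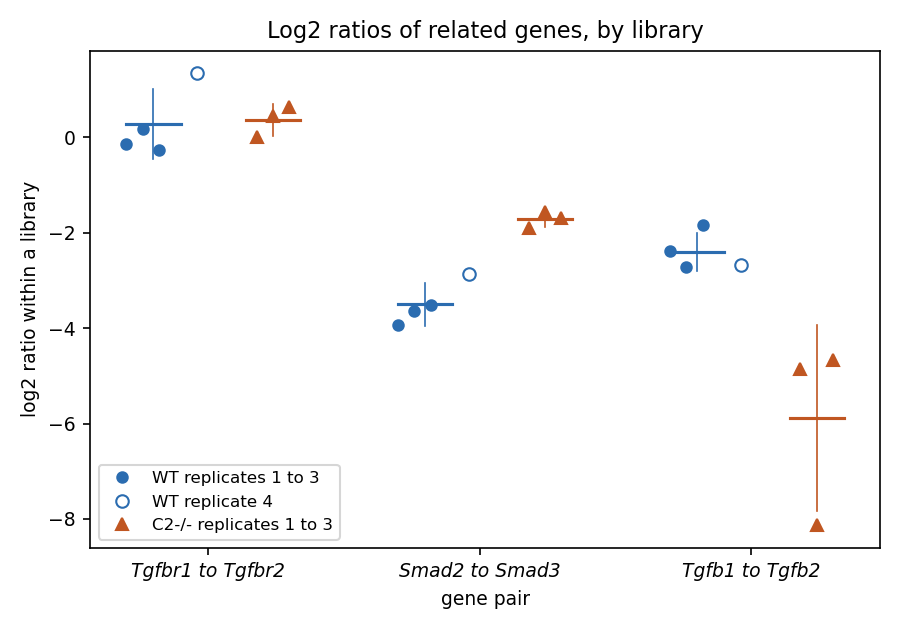
Log2 ratio of the paired genes within each library (vertical axis), for Tgfb1 to Tgfb2, Tgfbr1 to Tgfbr2 and Smad2 to Smad3, with WT libraries as circles (replicate 4 open) and C2-/- libraries as triangles; lines are group means and SD. The Smad2 to Smad3 ratio lay between −3.94 and −2.88 in WT and between −1.89 and −1.57 in C2-/- muscle, whereas the Tgfbr1 to Tgfbr2 ratios overlapped.

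On a scale of CPM per kilobase of the longest coding transcript, which allows genes to be ranked, WT muscle held Smad3 (42.4 ± 5.72, SD, n = 4) and Mstn (28.4 ± 11.4) at the top and Tgfb1 (3.39 ± 0.375) and Smad2 (2.37 ± 0.472) at the bottom. In C2-/- muscle the order began with Mstn (42.7 ± 13.9, SD, n = 3), Acvr2a (34.1 ± 6.28) and Tgfb2 (27.4 ± 3.92), followed by Smad3 (21.7 ± 2.09). With GC levelled the orders changed: Mstn (40.3 ± 10.2) led Smad3 (34.2 ± 3.32) in WT, and Smad3 (29.1 ± 5.52) led Mstn (25.6 ± 7.99) and Tgfb2 (24.5 ± 4.33) in C2-/- muscle. Among neighbours in the WT order of the deposited values the libraries of Smad4 and Acvr2a, of Tgfb2 and Tgfbr2 and of Tgfbr2 and Tgfb1 did not overlap, and the other neighbours did. In C2-/- muscle Tgfbr1, Tgfbr2, Smad2 and Tgfb1 were each separate from the next, and the rest overlapped.

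**Figure D3:**
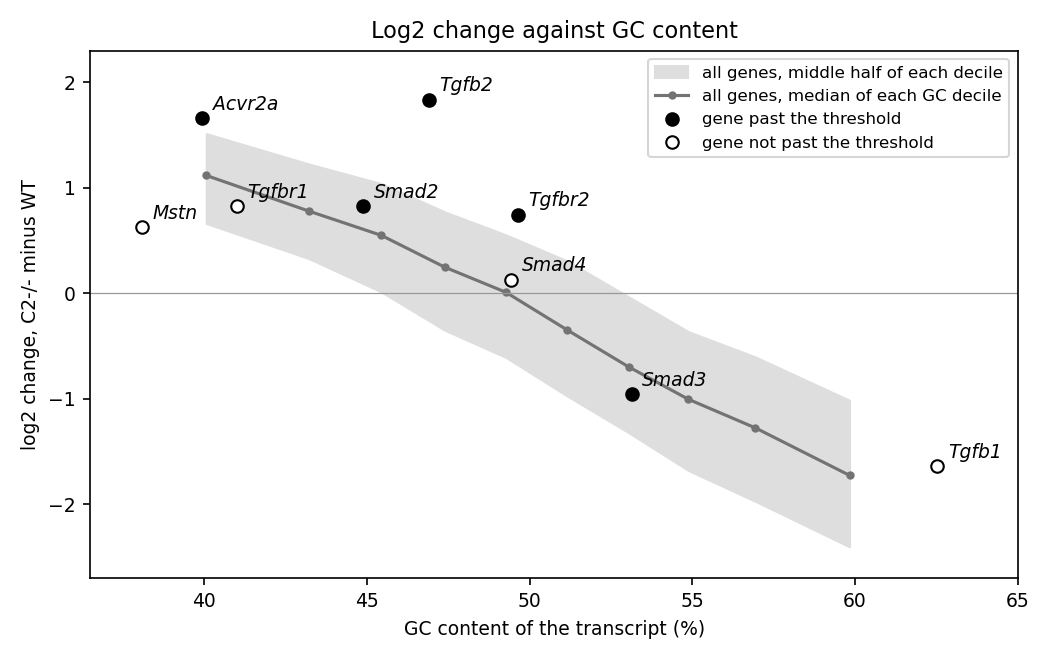
Log2 change, C2-/- minus WT (vertical axis), against transcript GC content in percent (horizontal axis), for the 9 genes (filled where past the rule) with the median of all genes per GC decile as a line and the interquartile range as a band. Tgfb2 (1.84) and Tgfbr2 (0.75) lay above the band, while Tgfbr1, Smad2, Smad4 and Smad3 lay inside it, and Mstn, Acvr2a and Tgfb1 lay at GC contents beyond the outermost decile medians.

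**Figure D4:**
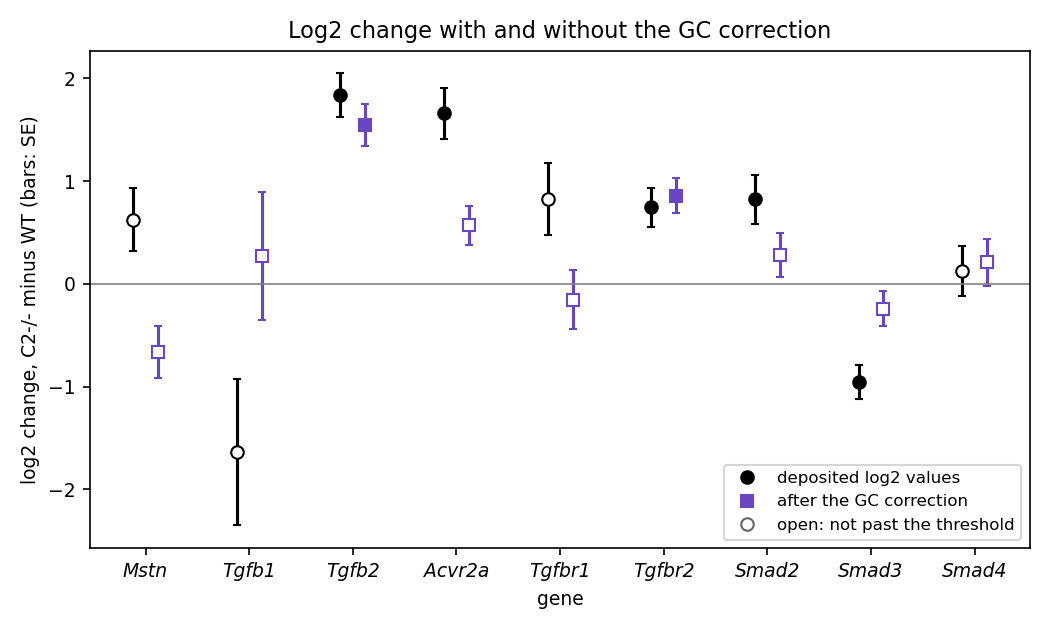
Log2 change of the 9 genes (C2-/- minus WT) as deposited and after the GC correction, as circles and squares with SE bars, filled where past the rule. Tgfb2 (1.84 and 1.55) and Tgfbr2 (0.75 and 0.86) changed little, whereas Mstn moved from 0.62 to −0.66 and Tgfb1 from −1.64 to 0.27.

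Further genes of the pathway were taken from a list of 78 by role, 69 of which were analysed. Of these, 31 changed (18 higher and 13 lower, 44.9%), close to the 45.2% of all genes, with a median log2 change of 0.17. The count fell to 20 without WT replicate 2 or without WT replicate 3. After the GC correction 21 changed, 17 higher and 4 lower, beside 1495 higher and 1014 lower of all genes (20.6%), and 11 genes passed in the same direction in both.

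Among 7 further ligands, Bmp4 and Bmp5 were higher and Inha was lower, and of these Bmp4 still passed after the GC correction (1.95). Bmp4 in WT replicate 4 (4.56 log2 CPM) lay within the C2-/- range of 4.27 to 4.62, above 2.44 to 2.86 in the other WT libraries. Its change of 1.36 (limma adjusted p = 0.0402) was 1.84 without WT replicate 4 and lost its call without any other 1 library (1.13 to 1.45). Inha, the inhibin alpha subunit, which antagonises activins, fell by 3.33 on the log2 scale (SE 0.58, limma adjusted p = 0.00178) on 7, 1 and 7 reads in C2-/- libraries, and the change was −1.67 after the GC correction (limma adjusted p = 0.0562). Bmp5 rose by 1.09 (SE 0.34, limma adjusted p = 0.0253) but was 0.06 after the GC correction, and its call was lost without WT replicate 2, WT replicate 3 or C2-/- replicate 2 (0.92 to 1.07). Gdf11, the nearest relative of myostatin, was at −1.19 and did not pass (limma adjusted p = 0.0515), nor after the correction (−0.59). Gdf11 did pass without a variance trend (limma adjusted p = 0.0161) and with 1 CPM added before the log (−0.96, limma adjusted p = 0.0336). It was picked out after its value was seen.

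Of 8 further receptors, Acvr1, Bmpr1a, Bmpr2 and Tgfbr3 were higher and Acvr1b, Acvrl1 and Eng lower. After the correction Acvr1 (1.13) and Bmpr2 were higher and Acvr1b and Bmpr1b (−1.23) lower, whereas Bmpr1a (0.38), Tgfbr3 (0.74), Acvrl1 and Eng (−0.17) no longer passed. Acvr1b, the type I receptor that myostatin and activins use, averaged 6.09 ± 0.30 (SD, n = 4) log2 CPM in WT and 3.54 ± 0.78 (SD, n = 3) in C2-/- muscle. The change of −2.55 (SE 0.34, limma adjusted p = 0.000597) was −1.78 after the GC correction (limma adjusted p = 0.00741) and passed in all 18 alternatives. Bmpr2, a type II receptor for bone morphogenetic proteins, rose by 1.77 (SE 0.29, limma adjusted p = 0.00148), and by 0.80 after the correction (limma adjusted p = 0.0364), also passing in all 18. Acvrl1, an endothelial type I receptor, changed by −2.06 (SE 0.57, limma adjusted p = 0.0145), by −1.24 without C2-/- replicate 2, and by −0.79 after the correction (limma adjusted p = 0.262).

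Among 19 extracellular regulators, Ltbp1, Itgav, Fst, Dcn and Bgn were higher and Furin, Bmp1, Ltbp3, Ltbp4, Wfikkn2 and Chrd lower. After the correction Ltbp1 (1.68), Bgn (2.03), Dcn, Fbn1 (0.95) and Nog (1.61) were higher. The calls of Itgav (0.19) and Bmp1 (−0.17) were lost, and Ltbp3 (0.30) and Ltbp4 (0.07) also turned in direction without passing. Dcn, a matrix proteoglycan that binds TGF-beta, rose by 1.94 (SE 0.16, limma adjusted p = 0.000162), and by 1.12 after the correction (limma adjusted p = 0.0011). Wfikkn2, a secreted protein that binds myostatin, changed by −2.13 (SE 0.42, limma adjusted p = 0.00303), and no longer passed after the correction (limma adjusted p = 0.0561). Chrd, an antagonist of bone morphogenetic proteins, changed by −2.82 (SE 0.95, limma adjusted p = 0.0332) on 6, 3 and 0 C2-/- reads; its call was lost without any 1 of WT replicates 1 to 3, and the change was −1.47 without C2-/- replicate 3 and −1.12 after the correction (limma adjusted p = 0.415). Fst, follistatin, which binds and blocks myostatin, and Furin, the protease that cuts its precursor, were also picked out after their values were seen. Fst rose by 1.83 (SE 0.57, limma adjusted p = 0.0246), a call lost without WT replicate 2, WT replicate 3 or C2-/- replicate 2 (1.27 to 1.83) and after the correction (1.51, limma adjusted p = 0.0883). Furin changed by −1.87 (SE 0.35, limma adjusted p = 0.00258), and by −0.38 after the correction (limma adjusted p = 0.256).

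All 23 other SMADs and intracellular regulators were analysed, of which Smad9, Skil, Trim33, Usp15, Map3k7 and Tab2 were higher and Smurf1 and Tab1 lower. After the correction Smad9, Skil, Tab2 (1.31), Smad6 (2.45), Smad7 and Ski (1.25) were higher and Zfyve9 (−0.81) and Ppm1a (−0.87) lower. Trim33 (0.05) and Map3k7 (0.39) no longer passed, and Usp15 (−0.24) and Smurf1 (0.25) turned in direction without passing. Skil, a repressor of SMAD-driven transcription that is itself a TGF-beta target, averaged 4.41 ± 0.46 (SD, n = 4) log2 CPM in WT and 6.52 ± 0.34 (SD, n = 3) in C2-/- muscle. It rose by 2.11 (SE 0.28, limma adjusted p = 0.000571), and by 1.13 after the correction (limma adjusted p = 0.00738). Smad9, a SMAD of the bone morphogenetic branch, rose by 3.03 (SE 0.58, limma adjusted p = 0.00278) on 4 to 14 WT and 15 to 23 C2-/- reads, and by 2.89 after the correction (limma adjusted p = 0.00786). Tab1, an adaptor of the kinase TAK1, changed by −1.76 (SE 0.37, limma adjusted p = 0.00423), and by −0.29 after the correction (limma adjusted p = 0.625). Smad7, the inhibitory SMAD, was at 1.01 (limma adjusted p = 0.123), 1.48 without WT replicate 4 (limma adjusted p = 0.00873) and 2.32 after the correction (limma adjusted p = 0.0185). It passed in 6 of 18 alternatives, among them quality weights (1.52), voom (1.35) and a replicate block (1.48).

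Of 12 target genes, Cdkn1a was higher, Junb was lower and 10 did not pass. After the correction Cdkn1a, Fn1 (1.38) and Id3 (1.29) were higher, and Junb (−1.28, limma adjusted p = 0.316) no longer passed. Cdkn1a, which encodes a cell cycle inhibitor, rose by 0.82 (SE 0.28, limma adjusted p = 0.0339) and by 1.75 after the correction (limma adjusted p = 0.00388), but its call was lost without WT replicate 2, WT replicate 3, C2-/- replicate 1 or C2-/- replicate 2 (0.70 to 0.83). Ctgf, a matricellular growth factor and a classic target, was at 0.23 and did not pass (limma adjusted p = 0.721), nor after the correction (0.27). It was named after its value was seen.

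**Figure D5:**
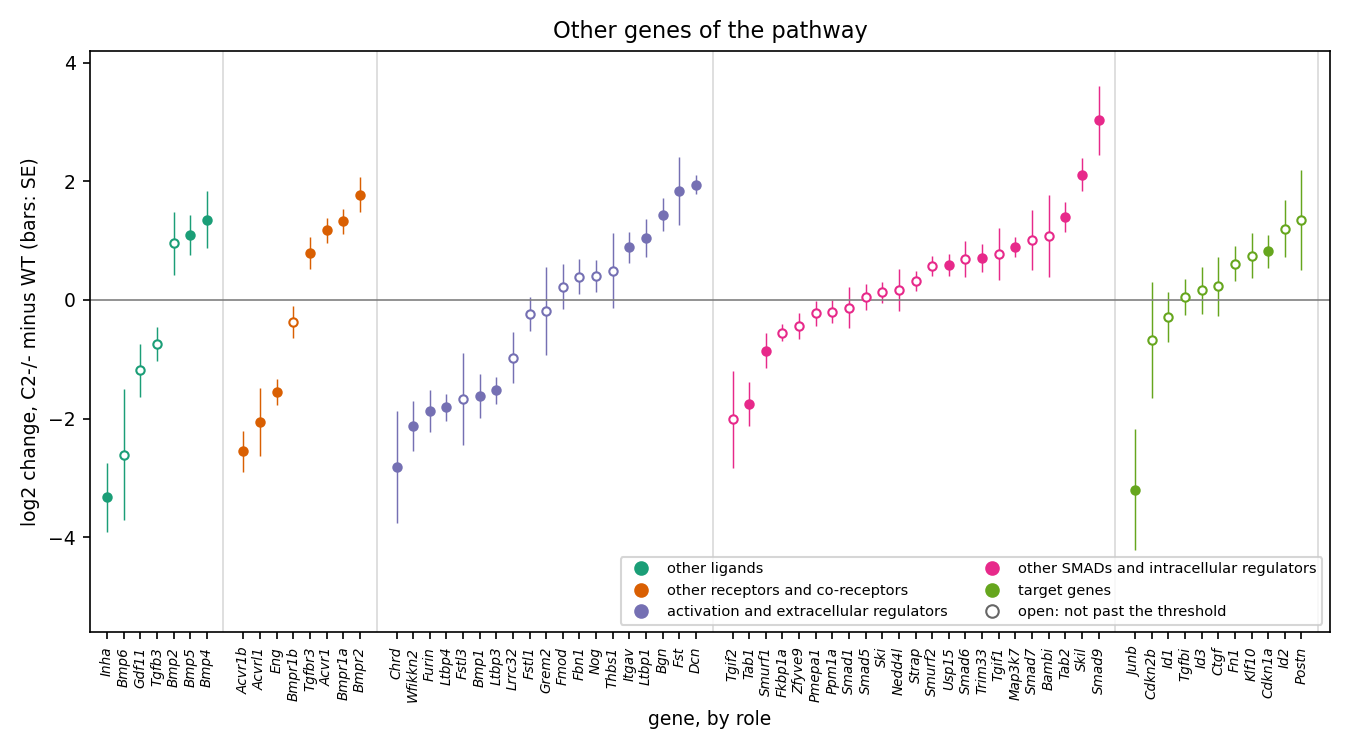
Log2 change (C2-/- minus WT) of 68 of the 69 analysed genes of the wider list, grouped by role, with SE bars and filled points for genes past the rule. Genes above and below 0 occurred in every role, with 18 called higher and 13 called lower.

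Markers of the cells that whole muscle holds were read in the same way. Of 8 fibroblast markers, 6 were higher and 1 lower, beside 20.2% higher and 25.0% lower of all genes, and their summed level was 607 to 1030 CPM in WT (1030 in WT replicate 4) and 1960 to 2530 CPM in C2-/- muscle. Of 10 muscle fibre markers, 6 were lower. After the GC correction, when 20.6% of all genes passed, 4 fibroblast markers were higher, and of the fibre markers 2 were lower and 1 (Tnni2) was higher. Endothelial markers summed to 357 to 572 CPM in WT and 295 to 394 CPM in C2-/- muscle (1 of 8 higher, 3 lower), and macrophage markers to 33.7 to 57.8 and 56.1 to 80.2 CPM (2 of 8 higher, 2 lower). The counts were 0 of 6 higher and 1 lower for smooth muscle and pericyte markers, 2 of 4 higher for satellite cells and 1 of 4 lower for Schwann cells and 1 of 2 lower for blood cells. With GC levelled, 1 macrophage (Cd163), 1 smooth muscle (Myh11) and 1 of 3 adipocyte markers were higher, and the other calls of the lists outside fibroblasts and fibres were lost. Dcn belongs to both the fibroblast and the regulator lists. Their part in the results was not tested, and in whole muscle fewer cells of a type and less RNA per cell cannot be told apart.

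The 5 genes whose log2 values followed Mstn most closely over the 7 libraries, among 7815 genes with a mean of at least 3, were Vps29 (Pearson r = 0.99), Dctn4 (0.98), Bcap29 (0.98), Cul5 (0.98) and Arfgef1 (0.97). After the GC correction these were 0.95 for Vps29, 0.86 for Dctn4, 0.79 for Bcap29, 0.73 for Cul5 and 0.89 for Arfgef1. None of the 5 passed the rule. Of the other genes of the set, Tgfbr1 was the closest (0.93) and Smad3 the most opposed (−0.58). The points share library depth and base composition, and these are descriptions without a test.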

How the data were processed

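Poly(A)-selected RNA of tibialis anterior muscle was sequenced as DNA nanoballs. According to the submitters' processing notes, reads were aligned with HISAT to GRCm38.p6 and counted per gene with featureCounts 1.5.2, and edgeR and limma were used. The authors deposited log2 CPM values with TMM scaling for 12239 genes, 1 column per library. A second deposited table holds the authors' own comparison (fold changes and p-values) and was not used.

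Reads were recovered from the log2 values with an offset of 0.5 (100.0% came out whole) and served for depth and for the voom alternative. Floors of 3 reads cover counting error only, and 95% intervals come from limma's SE between libraries. Groups came from the sample titles. The log2 values were fitted with limma 3.58.1 (lmFit, eBayes with trend; R 4.3.3), Benjamini-Hochberg over all genes, two-sided, and single ratios by exact permutation (SciPy 1.17.1) over 35 splits. The study describes 4 WT and 3 C2-/- mice; the sample labels do not name the animals, and p-values measure the spread between these samples. GC content came from GENCODE transcripts on GRCm38 for 12173 genes (99.5%), 355 through an older symbol, with a spline of 5 degrees of freedom. Wider genes given with full values were, per role, the 3 largest changes past the threshold whose groups did not overlap. Bmp4, Gdf11, Fst, Furin, Smad7 and Ctgf are also described and were not chosen by this rule. The code was tested on simulated data. Alternatives were other scalings, filters, pseudocounts, voom, quality weights, a replicate block, a stricter threshold and leaving out each library. The members and gene lists were chosen with earlier results of these data known. The values of 1 gene of the wider list, which is in its counts, are not reported here.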

Additional observations from a re-analysis of the deposited data

Results flagged for a closer look

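WT replicate 4 held 4683853 reads, where its 3 fellow WT libraries held 14929214 to 15464499, and lay further from its group than Dixon's 95% critical value for 4 samples allows. The test was run on 82 values (depth, Mybpc2, the 9 genes, 68 genes of the wider list and the 3 ratios), of which 4.1 would be expected to pass by chance. Among the pathway genes 7 did, all in the wider list and none among the 9. In log2 CPM, WT replicate 4 was at 6.45 for Bgn (others 5.32 to 5.35), 5.71 for Itgav (4.80 to 4.93), 9.39 for Tab2 (8.29 to 8.40), 3.63 for Nog (3.35 to 3.39), 7.40 for Strap (7.09 to 7.13) and 4.88 for Tgfb3 (5.79 to 5.88). For Gdf11 it was WT replicate 3, at 1.63 (others 2.36 or above). The values of Mstn and Tgfbr1 without WT replicate 4 are given with each gene, and in these genotype and depth cannot be told apart.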

How the results depend on the processing

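Of 161 values of the 9 genes under alternatives, 136 kept direction and side of the threshold. Of the genes given with full values, the GC correction turned Mstn (−0.66; −0.52 also without WT replicate 4), Tgfb1 (0.27; 0.42) and Tgfbr1 (−0.15), and with WT replicate 4 also left out turned Bmp5 (−0.050). Smad4 was −0.0035 under quantile normalization and Ctgf −0.15 with quality weights. Leaving out 1 library gave −0.11 to 0.43 for Smad4 (turned without C2-/- replicate 3) and −0.13 to 0.86 for Ctgf (turned without C2-/- replicate 2 or 3). The GC correction left 2 of the 9 genes past the threshold (3 also without WT replicate 4, with Acvr2a added) and 2509 of all genes (3128). It gave ratio differences of 0.53 (Smad2 to Smad3), −1.28 (Tgfb1 to Tgfb2) and −1.01 (Tgfbr1 to Tgfbr2, exact permutation p = 0.02857, not adjusted over the 3 ratios). An adjusted p under 0.01 left 3216 of all genes and 18 of the wider list. Leaving out 1 library gave 4 to 7 of the 9 genes, 20 to 38 of the wider list, 4095 to 6136 of all genes, and ratio differences of 1.63 to 1.99, −4.09 to −2.35 and −0.10 to 0.44 in the same order; with fewer libraries these exact tests cannot reach 0.05. Mybpc2 ranged from −12.26 to −10.78. Median centring moved the median change of all genes from −0.14 to 0.02, and the share of calls that were higher was 44.7% as reported, 54.0% with median centring, 59.6% after the GC correction and 51.1% under quantile normalization. Same-numbered replicates shared only a number (correlations of deviations 0.05, −0.06 and −0.05); a replicate block gave 7 of the 9 genes, 33 of the wider list, 5901 of all genes and −11.85 for Mybpc2. Quality weights ended the calls of Bmp5 (0.94), Fst (1.25) and Cdkn1a (0.76), the block those of Bmp5 (1.07) and Fst (1.61), and no variance trend that of Bmp4 (adjusted p = 0.0677) and Chrd (adjusted p = 0.053). The cause of these shifts was not tested. Low read counts limit scarce genes such as Tgfb1, Inha, Gdf11 and Chrd.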
